A study of Pinctada fucata with 3 samples.

Results

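The genes described here are transcripts of the pearl oyster Pinctada fucata that were abundant in the mantle after knockdown of either of 2 NF-κB pathway genes and lower in the control. They were chosen by their own measured levels: a gene is a member if it reached at least 100 FPKM (fragments mapped per kilobase of a transcript and per 1000000 fragments in the library) with both IκB and Rel dsRNA, and if the smaller of these values was at least 4 times its level in the control. Of 33072 listed genes, 139 met this rule (0.42%). Both knockdown libraries held 801 genes in common at that level, of which the members are 17.4%. Their excess over the control is therefore how they were found and is given as a description.

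The study set 3 groups of adult oysters side by side. One was injected with double-stranded RNA (dsRNA) against IκB (named poI-κB by the submitters), one with dsRNA against Rel (Pf-Rel), and the control with dsRNA against green fluorescent protein (GFP), a sequence foreign to the oyster. In all 3 groups 30 μg of dsRNA went into the adductor muscle of 5 oysters, and the mantle was sampled after 7 days. Each group is 1 library, and whether the 5 oysters were pooled is not stated, so no value has a replicate error, no test between groups was possible, and every difference is one between libraries.

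The mantle is the tissue that lays down the shell, through epithelial cells that secrete the organic matrix and supply calcium carbonate. Rel belongs to the NF-κB transcription factors, which across animals are known for switching on immune and stress genes. IκB binds such factors and keeps them in the cytoplasm until a signal leads to its breakdown, so that NF-κB target genes would lose an activator without Rel and an inhibitor without IκB. Double-stranded RNA lowers the matching transcript by RNA interference.

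The identifiers of the deposited table carry no gene names, so the roles of the members, the Rel and IκB transcripts themselves, and markers of mantle or of other cell types were not analysed here. In RNA from a whole piece of tissue, a change in the number of cells of a type and a change in RNA per cell cannot be told apart. The libraries summed to 1126540 FPKM with IκB dsRNA, 1006661 FPKM with Rel dsRNA and 1166698 FPKM in the GFP dsRNA control. Steps between low values put the depth of the IκB and Rel dsRNA libraries at 1.17 and 1.18 times that of the GFP dsRNA library. The number of reads is unknown.

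The members were among the abundant transcripts of both knockdown libraries and spread widely in the control. Their levels ran from 102.1 to 7309 FPKM with IκB dsRNA (median 330.1), from 102.5 to 7269 FPKM with Rel dsRNA (median 287.6), and from a listed 0 to 344 FPKM with GFP dsRNA (median 29.0). The median member ranked 385 by level with IκB dsRNA, 415 with Rel dsRNA and 2893 with GFP dsRNA. Among the 100 highest genes of each library there were 9 members with IκB dsRNA, 15 with Rel dsRNA and 0 with GFP dsRNA.

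**Figure D1:**
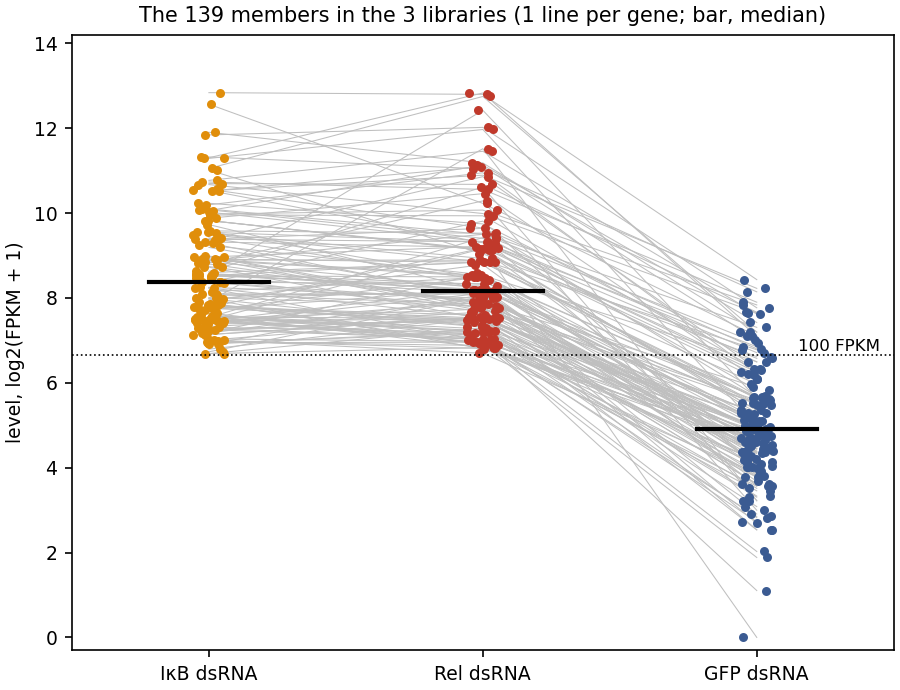
Level of each of the 139 members as log2(FPKM + 1) in the IκB, Rel and GFP dsRNA libraries, with 1 line per gene, a bar at the median and a dotted line at 100 FPKM. All members lie above that line in both knockdown libraries by the rule, and 21 of them also reach it with GFP dsRNA.

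Together the members held 8.15% of all FPKM with IκB dsRNA, 10.2% with Rel dsRNA and 0.626% with GFP dsRNA. A few genes carried much of this: the 10 highest members of each library held 37.4% of the members' FPKM with IκB dsRNA and 44.1% with Rel dsRNA, and 7 genes were in both of these lists. The mirror of the rule (at least 100 FPKM with GFP dsRNA, and at least 4 times the larger knockdown value) was met by 132 genes. These held 1.71% of all FPKM with IκB dsRNA, 1.59% with Rel dsRNA and 11.6% in the GFP dsRNA control.

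The size of the excess over the control varied. The smaller knockdown value was 4 to under 8 times the GFP value for 62 members, 8 to under 16 times for 50, 16 to under 32 times for 17 and at least 32 times for 9, and 1 member was listed at 0 in the control. On the log2(FPKM + 1) scale the median difference from GFP dsRNA was 3.50 for IκB dsRNA and 3.25 for Rel dsRNA, against -0.03 and 0.01 over the 20728 genes that averaged 1 FPKM or more across the libraries. All 139 members passed 2-fold on this scale with each dsRNA, which the rule brings about. Of the 20728 genes, 19% stood 2-fold or more above GFP dsRNA with IκB dsRNA, 20.5% with Rel dsRNA and 14% with both. Both knockdown libraries are compared with the same control library, and the difference between oysters or RNA preparations of that library and the others cannot be told apart from an effect of the dsRNAs.

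The members closest to the limits of the rule differed little from genes just outside it. Just inside the ratio of 4 were a gene at 444.5 FPKM with IκB, 235.9 FPKM with Rel and 58.4 FPKM with GFP dsRNA (4.04 times) and a gene at 181.5, 212.1 and 44.9 FPKM in the same order of libraries (4.04 times). Just outside were genes whose smaller knockdown value was 3.88 times the GFP value, at 362.3, 316.6 and 81.5 FPKM and at 150.9, 125.6 and 32.3 FPKM. At the minimum level, the lowest members stood at 102.06 and 102.08 FPKM in their lower knockdown library, and the nearest genes outside at 99.9 and 99.86 FPKM.

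In the control 18 members were under 10 FPKM. Their medians were 201.9 FPKM with IκB dsRNA, 157.4 FPKM with Rel dsRNA and 6.14 FPKM in the GFP dsRNA control. On the log2(FPKM + 1) scale BGI_novel_G010857 showed the largest ratio to the control with either dsRNA, over a control value listed at 0. It was at 217.9 FPKM with IκB dsRNA and 577.2 FPKM with Rel dsRNA, and no fold is given. The largest measured ratio for IκB dsRNA was that of pfu_aug2.0_2641.1_05605, at 179.6 FPKM with IκB, 130.2 FPKM with Rel and 1.15 FPKM with GFP dsRNA, a ratio of 156.2 for IκB over GFP dsRNA. For Rel dsRNA it was that of BGI_novel_G009946, at 240.0 FPKM with IκB dsRNA, 2925 FPKM with Rel dsRNA and 8.30 FPKM in the GFP dsRNA control, a ratio of 352.4 for Rel over GFP dsRNA.

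At the other end, 21 members were already at 100 FPKM or more with GFP dsRNA. Their medians were 1629 FPKM with IκB dsRNA, 1634 FPKM with Rel dsRNA and 157.3 FPKM in the GFP dsRNA control. Their log2 differences from the control had medians of 3.16 for IκB and 2.90 for Rel dsRNA, against 5.04 and 5.00 for the 18 members under 10 FPKM, an order that the minimum of 100 FPKM favours, since a scarce control value must be exceeded by more to reach it. The remaining 100 members lay between, 84 of them at 10 to under 50 FPKM and 16 at 50 to under 100 FPKM with GFP dsRNA.

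The most abundant member with IκB dsRNA was BGI_novel_G010224, at 7309 FPKM with IκB dsRNA, 7109 FPKM with Rel dsRNA and 344 FPKM in the GFP dsRNA control. It was at about the same level in both knockdown libraries (log2 ratio of IκB over Rel 0.04, or -0.12 when each library is scaled to the same sum), and it was also the highest member in the control. The next highest with IκB dsRNA, pfu_aug2.0_2024.1_15361, stood at 6054 FPKM with IκB dsRNA, 1197 FPKM with Rel dsRNA and 136.4 FPKM in the GFP dsRNA control. BGI_novel_G010326, the highest with Rel dsRNA, stood at 2522 FPKM with IκB dsRNA, 7269 FPKM with Rel dsRNA and 135.4 FPKM in the GFP dsRNA control. In all, 17 members were at 1000 FPKM or more in both knockdown libraries.

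The rule did not use the ratio between the knockdown libraries, although its minimum of 100 FPKM in each limits how far apart they can lie. Most members were at similar levels in both: the median log2 ratio of IκB over Rel dsRNA was 0.18, and the middle of the distribution ran between -0.34 and 0.61 at its quartiles. For the 662 other genes that reached 100 FPKM in both knockdown libraries, the median was 0.13 and the quartiles were -0.20 and 0.45. IκB was above Rel dsRNA for 86 members (61.9%) and for 402 of these other genes (60.7%). When each library was scaled to the same sum these counts were 71 (51.1%) and 310 (46.8%), so the lean toward IκB dsRNA depends on the scaling. Scaling to equal sums took the members' median to 0.02 and moved the median of all 20728 genes by -0.13.

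Some members differed widely between the knockdowns. With IκB dsRNA 13 members (9.35%) stood 2-fold or more above, and 15 (10.8%) 2-fold or more below, their level with Rel dsRNA. The same marks were passed by 3.78% and 3.32% of the 662 other abundant genes, and by 8.03% and 9.08% of the 20728 genes, most of which are far less abundant. With 1 library per group, no test of this difference was made. On the scale of equal sums the members' counts were 11 and 17. With median-ratio scaling they were 15 and 14, and with upper-quartile scaling 15 and 15.

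**Figure D2:**
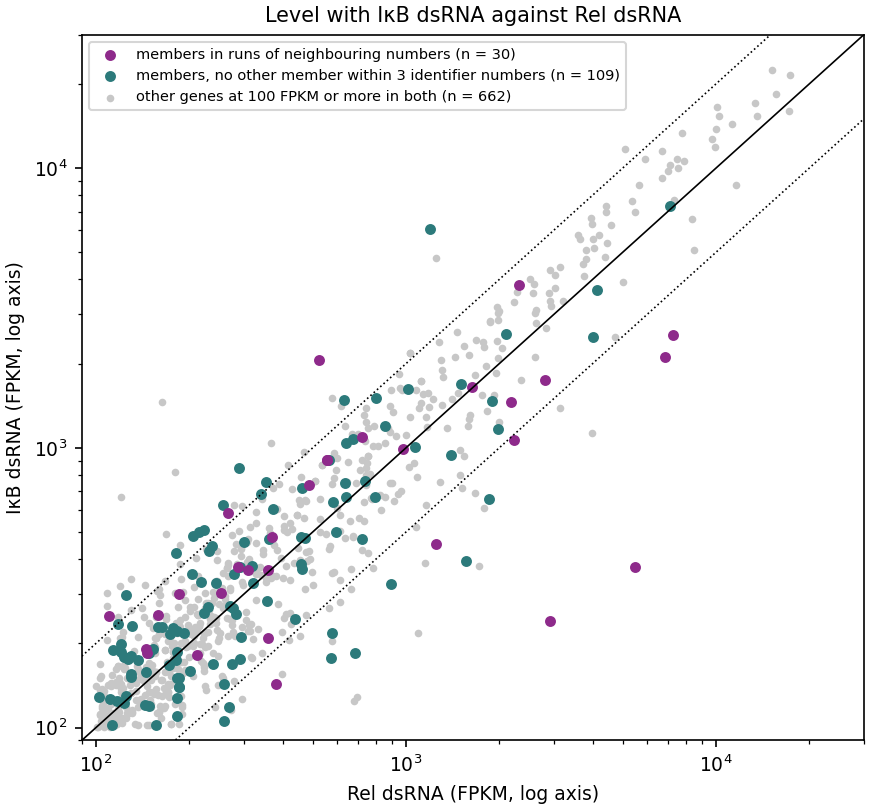
FPKM with IκB dsRNA against FPKM with Rel dsRNA (log axes) for the 30 members in runs of neighbouring identifier numbers, the 109 other members and the 662 other genes at 100 FPKM or more in both, with lines at equality and at 2-fold. Of the members, 13 lie at or above the upper dotted line and 15 at or below the lower one, with BGI_novel_G010324 and BGI_novel_G009946 the farthest below.

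The members furthest toward IκB dsRNA were pfu_aug2.0_2024.1_15361, whose levels are given above (5.06 times the Rel value, log2 ratio 2.34), and BGI_novel_G006640, at 2066 FPKM with IκB dsRNA, 524.7 FPKM with Rel dsRNA and 97.0 FPKM in the GFP dsRNA control (log2 ratio 1.98). Those furthest toward Rel dsRNA were BGI_novel_G010324, at 374.8 FPKM with IκB dsRNA, 5479 FPKM with Rel dsRNA and 48.6 FPKM in the GFP dsRNA control (log2 ratio -3.87), and BGI_novel_G009946, with a log2 ratio of -3.60. Both of the last pair exceeded the control with each dsRNA, but their Rel values were 14.6 and 12.2 times their IκB values.

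Counts toward either dsRNA were also taken by abundance, with no test of the difference. The larger knockdown value set the class, so a member far apart between the knockdowns could enter the higher class more easily. The other abundant genes were not split in this way, so these counts have no share beside them. Of the 30 members at 1000 FPKM or more in at least 1 knockdown library, 3 stood 2-fold or more above and 8 stood 2-fold or more below the Rel value with IκB dsRNA. Of these 8 members, 6 belong to 2 runs of neighbouring identifier numbers, and 2 are in no run. Of the 109 members below that level in both, 10 were higher and 7 lower, and IκB was above Rel dsRNA for 72 of them. The summed level of all members was 91806 FPKM with IκB dsRNA and 102458 FPKM with Rel dsRNA. In FPKM this order rested on 3 genes: without BGI_novel_G010324 and the members with the next 2 numbers, the sums were 86790 FPKM with IκB dsRNA and 82844 FPKM with Rel dsRNA. As shares of each library's FPKM these sums were 7.70% with IκB dsRNA and 8.23% with Rel dsRNA, so on that scale the order stayed.

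Identifiers of both kinds in the table were present. Those beginning with BGI_novel made up 79 members (56.8%), against 48.8% of the other abundant genes and 51.0% of the 20728 genes, and those beginning with pfu_aug2.0 made up 60. Median levels of the BGI_novel members were 352.6 FPKM with IκB dsRNA, 340.9 FPKM with Rel dsRNA and 30.4 FPKM in the GFP dsRNA control. Those of the pfu_aug2.0 members were 264.2, 227.9 and 28.5 FPKM in the same order. Of the 15 members past 2-fold toward Rel dsRNA, 14 had BGI_novel identifiers, compared with 8 of the 13 past 2-fold toward IκB dsRNA. Of these BGI_novel members, 7 toward Rel and 3 toward IκB dsRNA belong to runs of neighbouring numbers. Among the other abundant genes the BGI_novel identifiers were 7 of the 22 past 2-fold toward Rel and 14 of the 25 toward IκB dsRNA.

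Some members had identifier numbers close to each other. Grouping members of the same prefix whose numbers were within 3 of the next gave 11 runs with 30 members (21.6%), 10 of them BGI_novel runs with 28 members. There were 6 runs of 2 members, 2 of 3 and 3 of 4. The other abundant genes were not grouped in this way, so whether runs are more frequent among members was not tested. The table gives no positions, and whether neighbouring numbers are neighbouring genes, copies of a gene or pieces of 1 transcript was not tested. In the pfu_aug2.0 identifiers the last numbers run in 6863 unbroken stretches, 1 for each of 6863 middle numbers, and the 60 members carried 59 middle numbers, 1 of them shared by a pair with consecutive last numbers.

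**Figure D3:**
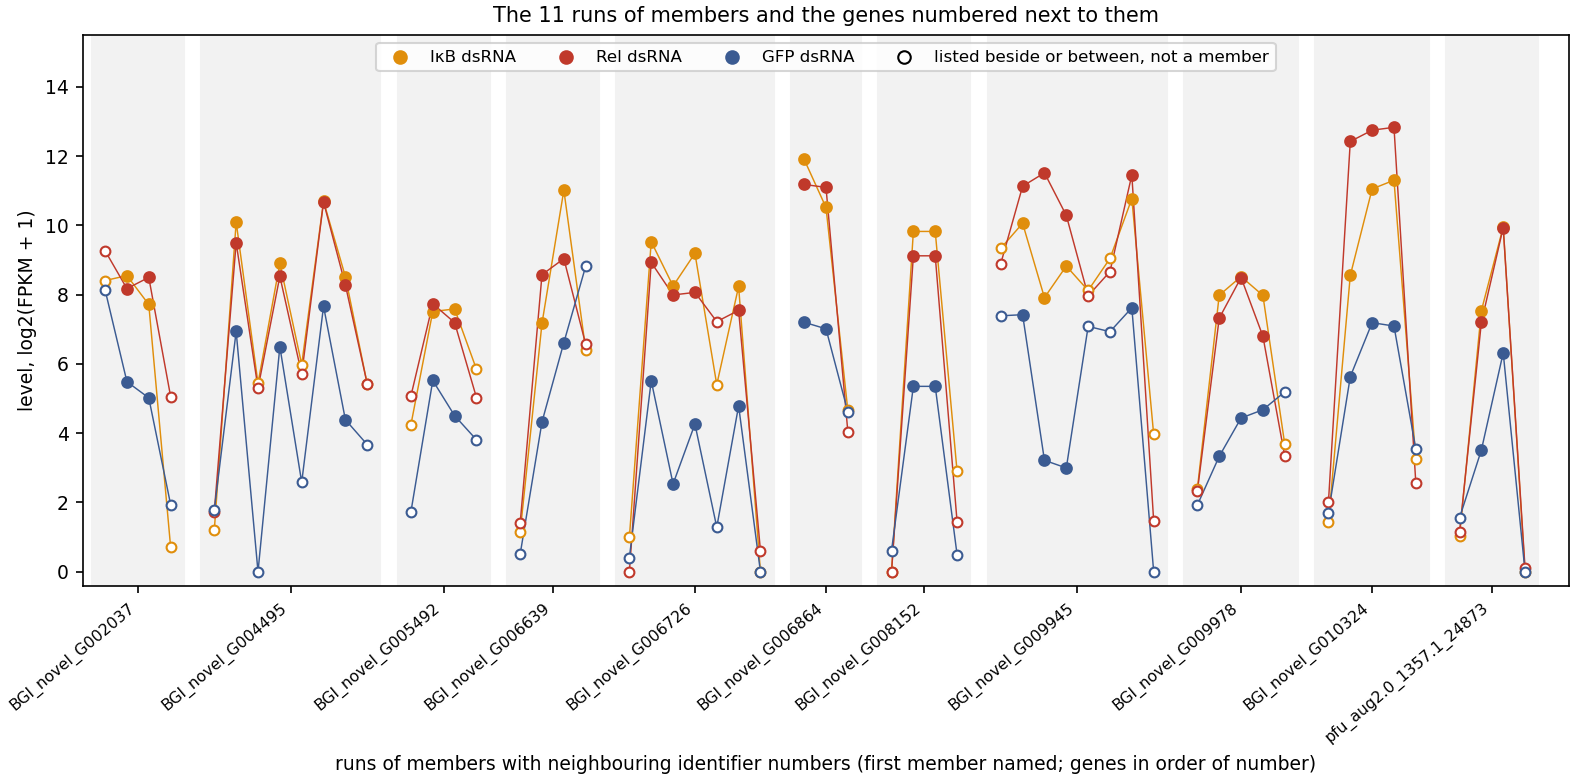
Level as log2(FPKM + 1) with IκB, Rel and GFP dsRNA for the 11 runs of members (filled points, first member named) and for listed genes between them or 1 number beside them (open points), in order of identifier number. In the run that starts with BGI_novel_G010324 all 3 members are lower with IκB than with Rel dsRNA, and the genes on either side are at 10.6 FPKM or less in all libraries.

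The run of BGI_novel_G010324 to BGI_novel_G010326 had the highest summed FPKM of the 11 runs with Rel dsRNA. With IκB dsRNA 1 pair summed higher, at 5292 FPKM against 5016 FPKM for this run, and with GFP dsRNA 2 runs of 4 did, at 432.5 and 381.2 FPKM against 329.0 FPKM. Its members stood at 374.8, 2119 and 2522 FPKM with IκB dsRNA, at 5479, 6866 and 7269 FPKM with Rel dsRNA, and at 48.6, 145.0 and 135.4 FPKM with GFP dsRNA. With IκB dsRNA all 3 stood 2-fold or more below their Rel values. Together they held 5.46% of the members' FPKM with IκB dsRNA, 19.1% with Rel dsRNA and 4.50% with GFP dsRNA.

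BGI_novel_G009946 belongs to a run of 4 members within 6 numbers. The 4 genes stood at 1065, 240.0, 452.2 and 1743 FPKM with IκB dsRNA, at 2237, 2925, 1247 and 2805 FPKM with Rel dsRNA, and at 170.3, 8.30, 6.98 and 195.7 FPKM with GFP dsRNA. The control values fall into a high and a low pair at least 20.5-fold apart. The 4 genes span a 7.26-fold range with IκB dsRNA, 2.34-fold with Rel dsRNA and 28.0-fold with GFP dsRNA. All 4 were lower with IκB than with Rel dsRNA, 3 of them at least 2-fold.

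The other 3 runs of 3 or 4 members were higher with IκB than with Rel dsRNA in each of their genes on the deposited scale, and 1 of the 3 still was when libraries were scaled to equal sums. One run of 4 summed to 3591 FPKM with IκB dsRNA, 3034 FPKM with Rel dsRNA and 432.5 FPKM in the GFP dsRNA control. The other run of 4 summed to 1924, 1192 and 94.3 FPKM and the run of 3 to 868.5, 628.1 and 54.3 FPKM in the same order. On the deposited scale all 5 runs of 3 or 4 members thus lay on 1 side of equality between the knockdowns, 3 toward IκB and 2 toward Rel dsRNA, but with equal sums 2 of the runs toward IκB dsRNA were split. Median-ratio and upper-quartile scaling split none of these runs. Listed genes between these members, named here after their values were seen, did not all lie on the side of their run. BGI_novel_G009948 and BGI_novel_G009949, inside the run of BGI_novel_G009946, had log2 ratios of IκB over Rel of 0.15 and 0.38 (-0.01 and 0.22 with equal sums), where the members of that run are negative. BGI_novel_G006729, inside the second run of 4 toward IκB dsRNA, had a ratio of -1.82, and the remaining 2 such genes lay on the side of their run on the deposited scale, 1 of them not with equal sums (log2 ratio 0.14, or -0.02). On the deposited scale 4 of the 6 pairs had 1 member on each side. BGI_novel_G006640 is in such a split pair: its partner with the number before it was at 143.3 FPKM with IκB dsRNA, 380.4 FPKM with Rel dsRNA and 19.1 FPKM in the GFP dsRNA control. Reads can be divided between near-identical copies, and whether that happened within these runs was not tested.

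Identical values in all 3 libraries were shared by 4 members, in 2 pairs. One pair had consecutive BGI_novel numbers, at 904.9 FPKM with IκB dsRNA, 555.2 FPKM with Rel dsRNA and 39.8 FPKM in the GFP dsRNA control. The other joined a BGI_novel and a pfu_aug2.0 identifier, at 139.7, 185.0 and 11.3 FPKM in the same order. Counted once, these leave 137 members. Such members were 2.88% of the set, against 3.99% (828) of the 20728 genes.

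Genes numbered next to a member were not chosen by the rule and were set beside other genes. Counted were those of the 20728 genes that did not reach 100 FPKM in both knockdown libraries. At 1 number from a member this kept 103 of 113 such listed BGI_novel genes and 37 of 75 pfu_aug2.0 genes. The mean of 1 FPKM asked of the 20728 genes includes both knockdown libraries. A gene scarce in the control can thus be counted only because it is high with the dsRNAs, so the shares are descriptions. The same filter held for the genes set beside them. Of the genes counted 1 number from a member, 26 of 103 BGI_novel genes (25.2%) and 16 of 37 pfu_aug2.0 genes (43.2%) stood 2-fold or more above GFP dsRNA in both knockdown libraries. Over all 19927 genes of this kind the share was 13.5%. Beside the 662 other abundant genes it was 15.2% (70 of 460) for BGI_novel and 13.5% (34 of 252) for pfu_aug2.0 identifiers. At 2 and 3 numbers from a member the share was 20.7% and 17.9% for BGI_novel and 26.9% and 28.1% for pfu_aug2.0 identifiers. Beside the other abundant genes it was 13.3% and 15.7% for BGI_novel and 11.8% and 17.2% for pfu_aug2.0 identifiers at these distances. These counts describe 3 libraries, no test was made of them, and whether neighbours share reads with the members was not tested.

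**Figure D4:**
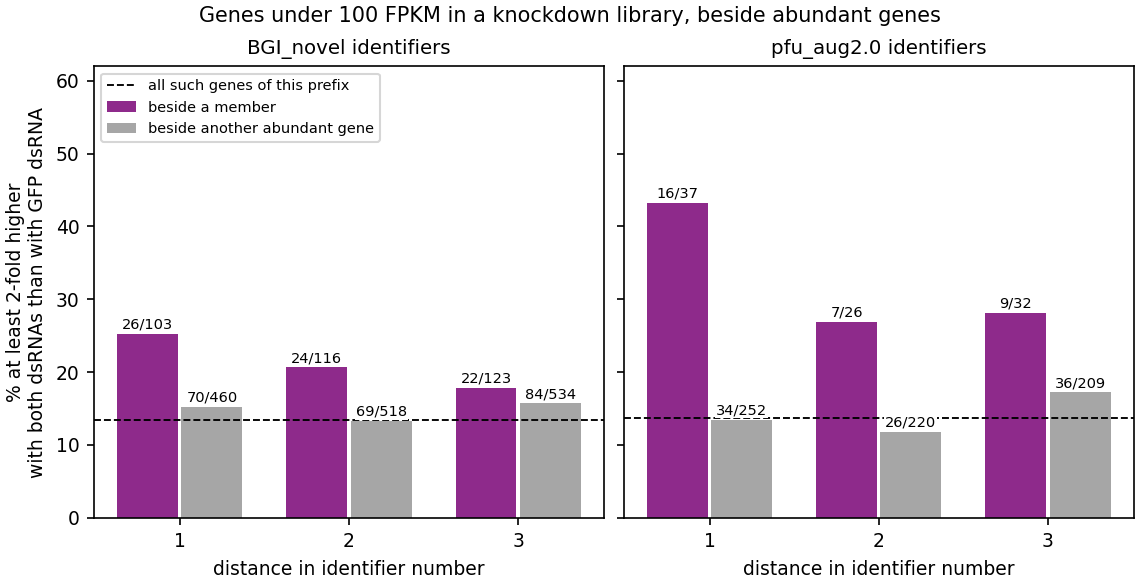
Percentage of genes, short of 100 FPKM in at least 1 knockdown library, that stood 2-fold or more above GFP dsRNA with both dsRNAs (FPKM + 1), by distance in identifier number from a member or from another abundant gene. Only genes that averaged 1 FPKM or more across the libraries are counted. Bars carry the counts and the dashed line is the share over all such genes of the prefix. The bar beside members is taller at each of the 3 distances and for both prefixes.

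Genes 2-fold or more below GFP dsRNA in both knockdown libraries made up 12.2% of all genes of this kind, 13.6% (14 of 103) of the BGI_novel genes 1 number from a member, and 2.70% (1 of 37) of the pfu_aug2.0 genes. Of the pfu_aug2.0 neighbours, 29 had the middle number of the member beside them and 8 another one, and 13 and 3 of these passed 2-fold upward with both dsRNAs. The 13 genes had medians of 6.38 FPKM with IκB dsRNA, 9.11 FPKM with Rel dsRNA and 0.27 FPKM in the GFP dsRNA control, well below the members' levels. A gene at that control level passes the mean of 1 FPKM only through its knockdown values, so the count of 13 is a description.

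Between the members of runs lay 5 listed genes, of which 4 passed 2-fold upward in both knockdown libraries. BGI_novel_G009948 and BGI_novel_G009949 reached 100 FPKM in both knockdown libraries. The others are already among the BGI_novel neighbours counted above. Some members had neighbours that went separate ways, and how many did was not counted. BGI_novel_G008729, picked as an example after its values were seen, was at 658.9 FPKM with IκB dsRNA, 1853 FPKM with Rel dsRNA and 79.6 FPKM in the GFP dsRNA control. The gene with the number before it was listed at 0 with IκB dsRNA and stood at 290.4 FPKM with Rel dsRNA and 1435 FPKM in the GFP dsRNA control. The gene with the number after it was at 2988, 14.4 and 4.09 FPKM in the same order. Each of these 3 consecutive identifiers was thus highest in a different library.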

How the data were processed

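RNA from mantle was sequenced as 3 libraries, 1 per group. The authors deposited 1 table of FPKM values rounded to 2 decimals, with 33072 genes and 3 value columns, and all columns were matched to libraries by name (0 unused). HISAT, Bowtie2 and RSEM were used, per the submitters' processing notes. Their versions and roles, the build and the gene models are unknown: not given in the sources used here. FPKM values are not counts, so no count model was used. With 1 library per group no p-value was computed.

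The members were found by the rule on plain FPKM. Log2 ratios use FPKM + 1, which matters little for members except those near 0 in the control. Shares over all genes use the 20728 genes that averaged 1 FPKM or more. Relative depth was read from the most frequent ratio between libraries at 0.3 to 3 FPKM. The code was tested on simulated data with known answers. Members and lists were chosen with earlier results of these data known. The members named by identifier are the 2 with the largest log2 ratio against GFP dsRNA for each dsRNA, the 2 largest and 2 smallest for IκB over Rel dsRNA, and the 2 highest in each knockdown library. Planned lists of shell matrix, immune and cell type genes could not be applied without gene names. Python 3.11.15, pandas 2.3.3, numpy 2.4.6 and matplotlib 3.10.9 were used.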

Additional observations from a re-analysis of the deposited data

How the results depend on the processing

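The number of members followed the limits of the rule: a minimum of 50 FPKM gave 229 and one of 200 FPKM gave 83, and a ratio of at least 8 gave 77. A ratio of at least 3 gave 157 members, equal sums per library 141 (135 of the 139 among them), median-ratio scaling 136 (all of them members) and upper-quartile scaling 148 (all 139 among them). Past 3-fold, 2 of the 139 members stood above and 6 below their Rel value with IκB dsRNA. Of the 662 other abundant genes 4 stood above and 5 below, and of the 20728 genes 721 and 753. An alternative was added after the data were seen: the 109 members with no other member within 3 numbers. Of these, 10 were past 2-fold above and 8 past 2-fold below, with fewer genes counted. Without the filter on low values, 9.02% of all listed genes passed 2-fold upward in both knockdown libraries. Scaling to equal sums turned the log2 ratio of IκB over Rel for BGI_novel_G010224 to -0.12. A pseudocount of 0.1 moved the ratios against GFP dsRNA of BGI_novel_G010857, which is listed at 0 there, and of pfu_aug2.0_2641.1_05605 (to 7.17 for IκB and 6.70 for Rel dsRNA). Equal sums moved the median of all genes by 0.17 for Rel over GFP dsRNA. No paired analysis was possible because each group has 1 library, and for the same reason no replicate could be left out.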
